A study of Mus musculus with 36 samples.

Results

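Circular RNAs (circRNAs) of the brain were compared between APP/PS1 and wild-type (WT) mice at 6 months of age. The comparison used every circRNA of the deposited count table, 15690 in all, in 6 of the 36 libraries of the series: APP/PS1 1, 2 and 3 and WT 1, 2 and 3. The APP/PS1 mice expressed mutant APP695swe and PS1-dE9, the WT mice did not, and all carried the strain label C57BL/6. The other 6 circRNA libraries, 3 of APP/PS1 and 3 of WT at 9 months, entered the same statistical model and served to set the 6-month values beside those of a later age. The series also holds long RNA and small RNA libraries of the same 4 groups. Its design text asks how the transcriptome of the brain differs between the genotypes at both ages.

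Circular RNAs are closed loops made by back-splicing, in which a downstream splice donor is joined to an upstream acceptor. Without free ends they resist exonucleases and tend to accumulate in cells that do not divide, and brain, synapses in particular, is known to be rich in them. A few are known to bind microRNAs, while most have no known role. APP/PS1 mice make mutant amyloid precursor protein and mutant presenilin 1, and form amyloid plaques in cortex and hippocampus as they age. In the widely used line with these transgenes the prion protein promoter drives them, although the labels do not name the promoter here.

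The circRNAs are given by ID, because the deposited table pairs no ID with a host gene, a position or a sequence. Of the 15690, 1197 had IDs beginning mmu_circ, the form used for catalogued mouse circRNAs, and 14493 had IDs beginning novel_circ. Levels are given as reads or as CPM, which are counts scaled to an equal total of circRNA reads in each library, and means are followed by the SD with n = 3 libraries per group. CPM is a share of the circRNA reads of a library and has no length term. In bulk tissue, fewer cells that hold a circRNA and less of it per cell cannot be told apart. The labels do not state whether each library was made from a different mouse, and p-values here therefore reflect library-to-library spread that may be technical in origin.

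The 12 circRNA libraries held 247998 to 654147 reads, and no library was a copy of another. The extraction text names retinas while every tissue label reads brain, and the long RNA libraries of 6 months bore on this. Their summed FPKM of 5 forebrain neuron markers was 1648 to 1794 in APP/PS1 and 1674 to 1874 in WT, whereas 5 photoreceptor markers summed to 0.606 to 1.16 in APP/PS1 and at most 1.24 in WT. The 3 astrocyte markers summed to 217 to 242 FPKM in APP/PS1 and 185 to 189 in WT. Most of this gap lay in Gfap, at 86.28 to 109.3 FPKM in APP/PS1 and 56.17 to 62.04 in WT. Aqp4 stood at 25.49 to 29.89 FPKM in APP/PS1 and 24.03 to 24.97 in WT. Slc1a3 overlapped, at 101.8 to 105.5 FPKM in APP/PS1 and 102.3 to 103.9 in WT. The 3 oligodendrocyte markers summed to 505 to 524 FPKM in APP/PS1 and 514 to 556 in WT. The 5 choroid plexus markers summed to 96.6, 320 and 292 FPKM in APP/PS1 and 4.53, 282 and 10.7 in WT, so WT 1 and WT 3 of the long RNA libraries stood apart from the other 4. The 4 striatal markers found summed to 157 to 161 in APP/PS1 and 178 to 213 in WT. App, the gene of the amyloid precursor protein, stood in those libraries at 970 to 1007 FPKM in APP/PS1 and 433 to 441 in WT. Prnp, the prion protein gene, stood at 718 to 739 FPKM in APP/PS1 and 249 to 256 in WT. Which promoter drove the transgenes was not tested. The circRNA counts hold no gene that checks their own labels. The labels do not say that equally numbered long RNA and circRNA libraries share an animal. The part of these marker differences in the circRNA results was therefore not tested.

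Summed over whole libraries, the circRNA reads, the catalogued share and the share of the most abundant circRNAs overlapped between the genotypes. The APP/PS1 libraries held 361863, 452621 and 393538 circRNA reads, and the WT libraries 379837, 294807 and 340287. The ranges overlapped, with means of 402674 ± 46064 in APP/PS1 and 338310 ± 42549 in WT (exact two-sided permutation test, p = 0.2, and 0.4 after Benjamini-Hochberg adjustment over the 4 library summaries tested). Catalogued IDs took 44.1%, 43.8% and 44.4% of the reads in APP/PS1 and 45.2%, 44.0% and 44.0% in WT. These overlapped too (exact permutation p = 0.7, adjusted 0.7), and the sign of the difference turned on WT 1: the mean of APP/PS1 minus that of WT was −0.292 percentage points with WT 1 and 0.115 without it. With the 10 most abundant circRNAs left out, the catalogued share was 41.4%, 41.0% and 40.8% in APP/PS1 and 41.8%, 41.9% and 41.6% in WT. Every APP/PS1 library was then below every WT library, with a mean difference of −0.708 percentage points, at the smallest exact permutation p of 0.1. The 10 most abundant circRNAs held 7.55%, 7.44% and 6.07% of the reads in APP/PS1 and 5.90%, 6.36% and 6.61% in WT (exact permutation p = 0.3, adjusted 0.4).

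More circRNAs were listed above 0 in APP/PS1 than in WT. Their number was 13646, 14293 and 13979 in the APP/PS1 libraries and 13534, 12719 and 13253 in the WT libraries. Every APP/PS1 library lay above every WT library, and the exact permutation p of 0.1 is the smallest that 3 against 3 libraries can give (adjusted 0.4). Depth moves with this number. Every library was then thinned to 294807 reads, the total of WT 2, and circRNAs left with at least 2 reads were counted. Their number was 13029, 13109 and 13168 in APP/PS1 and 12813, 12719 and 12857 in WT. The groups again did not overlap (exact permutation p = 0.1). The gap was then 306 circRNAs, against 804 in the libraries as deposited. With at least 5 reads required, the means were 10201 ± 572 in APP/PS1 and 9274 ± 656 in WT (exact permutation p = 0.2).

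The profiles of the 6 libraries correlated at 0.813 to 0.868, and every APP/PS1 pair lay above every pair of an APP/PS1 and a WT library. The correlation of log2(CPM + 5) over the tested circRNAs, given as a description, was 0.848 to 0.868 between APP/PS1 libraries. It was 0.829 to 0.839 between WT libraries and 0.813 to 0.844 between an APP/PS1 and a WT library. Between a 6-month and a 9-month library it was 0.794 to 0.852. The APP/PS1 libraries, whose pairs had the highest coefficients at 6 months, also held more reads on average, and the part of depth in this was not tested.

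Few circRNAs differed between the genotypes at 6 months. Of 14872 circRNAs with enough reads to be tested, 7 passed the threshold (edgeR quasi-likelihood F test, Benjamini-Hochberg adjusted p under 0.05), which is 0.0471% of those tested. Of these, 5 were higher in APP/PS1 (0.0336%) and 2 were lower (0.0134%). At an unadjusted p under 0.05 there were 501 higher (3.37%) and 287 lower (1.93%), a total of 788. The median log2 change of APP/PS1 over WT, fitted after TMM scaling, was 0.04 over all tested circRNAs. In CPM, the groups did not overlap for 1023 circRNAs that were higher in APP/PS1 (6.88%) and for 923 that were lower (6.21%). The number of calls depended on single libraries: leaving out APP/PS1 1, 2 or 3 of 6 months gave 3, 1 or 3 calls. With WT 1, 2 or 3 of that age left out there were 4, 8 or 3 calls. Among the 7 were 1, 1 and 3 of the calls made without APP/PS1 1, 2 and 3 of 6 months. Without WT 1, 2 and 3 of that age, 1, 1 and 2 of the calls were among the 7. Leaving out APP/PS1 1 or APP/PS1 3 of 9 months gave 4 or 11 calls, and leaving out WT 1 or WT 3 of that age gave 17 or 2. It was 23 when only the 6 libraries of 6 months were fitted and 19 in DESeq2. When a mean of at least 10 reads was required it was 0 of 5813, where edgeR gave 330 with an unadjusted p under 0.05. Of the 7, novel_circ_0015649 and novel_circ_0015639 fell under that mean and were not tested there.

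**Figure D1:**
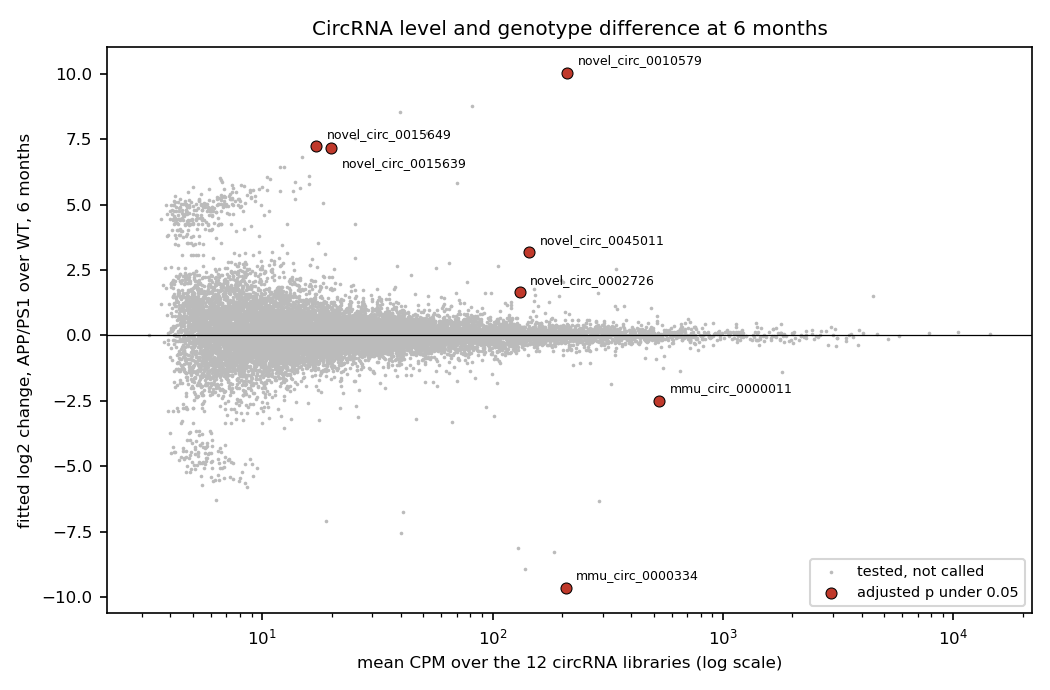
Each point is 1 of the 14872 tested circRNAs. The x axis is the mean CPM over the 12 circRNA libraries on a log scale, the y axis the fitted log2 change of APP/PS1 over WT at 6 months, and red points mark the 7 circRNAs with an adjusted p under 0.05. Most points lie near 0 and spread more widely at low CPM. The 4 called circRNAs listed at 0 in all libraries of 1 genotype have fitted changes of 10.04, 7.24, 7.16 and −9.64, which depend on the prior count and are no bounds.

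The spread of the log2 changes narrowed with abundance. With circRNAs classed by mean CPM over the 12 libraries, the median standard error of the log2 change was 1.03 for the 7941 tested circRNAs under 20 CPM, 0.43 for the 5146 between 20 and 100 CPM, 0.23 for the 1477 between 100 and 500 CPM and 0.16 for the 308 with at least 500 CPM. The median log2 change in these classes was 0.10, 0.01, 0.02 and 0.01. By class, 2 were called under 20 CPM (0.0252% of those tested) and 0 between 20 and 100 CPM. Another 4 were called between 100 and 500 CPM (0.271%) and 1 at 500 CPM or more (0.325%). That 1, mmu_circ_0000011, averaged 529 CPM over the 12 libraries. WT 1 and WT 2 of 6 months held it at 2069 and 1818 CPM, and every other library at 291 CPM or less. Its place in that class thus rests on those 2 libraries, which also carry its change. Of the 1196 tested catalogued circRNAs 2 were called (0.167%), both lower, and of the 13676 others 5 were called (0.0366%), all higher. Whether the shares differ between classes was not tested.

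The clearest difference was that of novel_circ_0045011, which was higher in APP/PS1. It had 57, 123 and 60 reads in the APP/PS1 libraries and 9, 6 and 7 reads in the WT libraries, which is 158, 272 and 152 CPM in APP/PS1 and 23.7, 20.4 and 20.6 CPM in WT. The lowest APP/PS1 library lay far above the highest WT library. The means were 194 ± 67.5 CPM in APP/PS1 and 21.5 ± 1.87 CPM in WT, a log2 change of 3.18 with a standard error of 0.41 (edgeR, adjusted p = 0.00363). It was the only one of the 7 still called whichever of the 12 libraries was left out, with an adjusted p of at most 0.0397, reached without WT 3 of 6 months. It had an adjusted p of 0.0547 when the test was restricted to circRNAs with a mean of at least 10 reads. Its level at 9 months was 161 ± 47.8 CPM in APP/PS1 and 199 ± 94.4 CPM in WT, so the WT libraries of 6 months were the low ones among the 4 groups.

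novel_circ_0002726 was also higher in APP/PS1 with reads in every library. Its level was 196, 175 and 96.6 CPM in APP/PS1 and 55.3, 61.1 and 35.3 CPM in WT. The groups did not overlap, and APP/PS1 3 was the APP/PS1 library nearest to the WT range. The log2 change was 1.65 with a standard error of 0.29 (edgeR, adjusted p = 0.044). With only the 6 libraries of 6 months fitted, the adjusted p in edgeR was 0.0744, which is above the threshold. The call remained without APP/PS1 3 of 6 months (0.0131), WT 1 (0.0248), WT 2 (0.0437) or APP/PS1 3 of 9 months (0.0489), and the adjusted p was 0.0522 to 0.303 without any 1 of the other 8 libraries, highest without APP/PS1 1 of 6 months. At 9 months it stood at 177 ± 2.25 CPM in APP/PS1 and 142 ± 20.6 CPM in WT, and the log2 change there was 0.30 (edgeR, adjusted p = 1).

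The other called circRNAs that were higher in APP/PS1 were listed at 0 in all 3 WT libraries of 6 months. novel_circ_0010579 had 75, 245 and 98 reads in APP/PS1 (207, 541 and 249 CPM) and 0 reads in each WT library (edgeR, adjusted p = 0.0409). No fold is given, since a count of 0 in these data may be a value below a minimum. At 9 months the same circRNA had 106, 128 and 0 reads in APP/PS1 and 240, 62 and 120 in WT, so an empty library occurred in APP/PS1 as well. The call remained when APP/PS1 2 (0.0332), APP/PS1 3 (6.97e-06) or WT 1 (0.0248) of 9 months was left out, and the adjusted p was 0.0522 to 0.162 without any 1 of the other 9 libraries.

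novel_circ_0015649 and novel_circ_0015639 had fewer reads and fell under the mean of 10 reads required for naming, so they were named after their values were seen. novel_circ_0015649 had 19, 25 and 14 reads in APP/PS1 and 0 in each WT library at 6 months, and 0 in each APP/PS1 library and 16, 2 and 11 in WT at 9 months. novel_circ_0015639 had 19, 27 and 9 reads in APP/PS1 and 0 in each WT library at 6 months, and 2, 0 and 0 in APP/PS1 and 14, 9 and 15 in WT at 9 months. novel_circ_0015649 was thus listed in APP/PS1 alone at 6 months and in WT alone at 9 months, while novel_circ_0015639 was also listed in APP/PS1 1 of 9 months, at a lower count than in any WT library of that age (edgeR, adjusted p = 0.0409 for both at 6 months). novel_circ_0015649 was called without any 1 of 5 libraries and had 0.0522 to 0.147 without any 1 of the other 7. novel_circ_0015639 was called without any 1 of 6 libraries and had 0.0577 to 0.147 without any 1 of the other 6. The 5 libraries were WT 1, WT 2 and APP/PS1 1, 2 and 3 of 9 months, and for novel_circ_0015639 APP/PS1 3 of 6 months was added to them.

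The 2 circRNAs that were lower in APP/PS1 had catalogued IDs. mmu_circ_0000334 had 0 reads in each APP/PS1 library and 87, 75 and 100 reads in WT, 229, 254 and 294 CPM (edgeR, adjusted p = 0.044). At 9 months it had 137, 106 and 99 reads in APP/PS1 and 175, 145 and 0 in WT, so WT 3 of that age was empty in its turn. The call remained without WT 1 (0.03), WT 2 (0.0437), WT 3 (9.28e-07) or APP/PS1 3 (0.0489) of 9 months, and the adjusted p was 0.0522 to 0.281 without any 1 of the other 8 libraries.

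mmu_circ_0000011 had 69, 123 and 102 reads in APP/PS1 and 786, 536 and 85 in WT. In CPM it stood at 191, 272 and 259 in APP/PS1 and 2069, 1818 and 249.8 in WT. WT 3 lay inside the range of APP/PS1, and so the groups overlapped, which put the circRNA outside the rule for naming. The means were 241 ± 43.6 CPM in APP/PS1 and 1379 ± 986 CPM in WT, a log2 change of −2.49 with a standard error of 0.44 (edgeR, adjusted p = 0.044). Its 9-month level was 259 ± 27.9 CPM in APP/PS1 and 238 ± 16.9 CPM in WT, so WT 1 and WT 2 of 6 months were the 2 libraries apart from the other 10. Without WT 3 of 6 months the adjusted p was 1.25e-07, without WT 1 of 9 months 0.0261 and without APP/PS1 3 of 9 months 0.0489. It was 0.0522 to 0.352 without any 1 of the other 9 libraries, 0.22 without WT 1 and 0.181 without WT 2 of 6 months. With only the 6 libraries of 6 months fitted, the adjusted p in edgeR was 0.145, which is above the threshold.

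**Figure D2:**
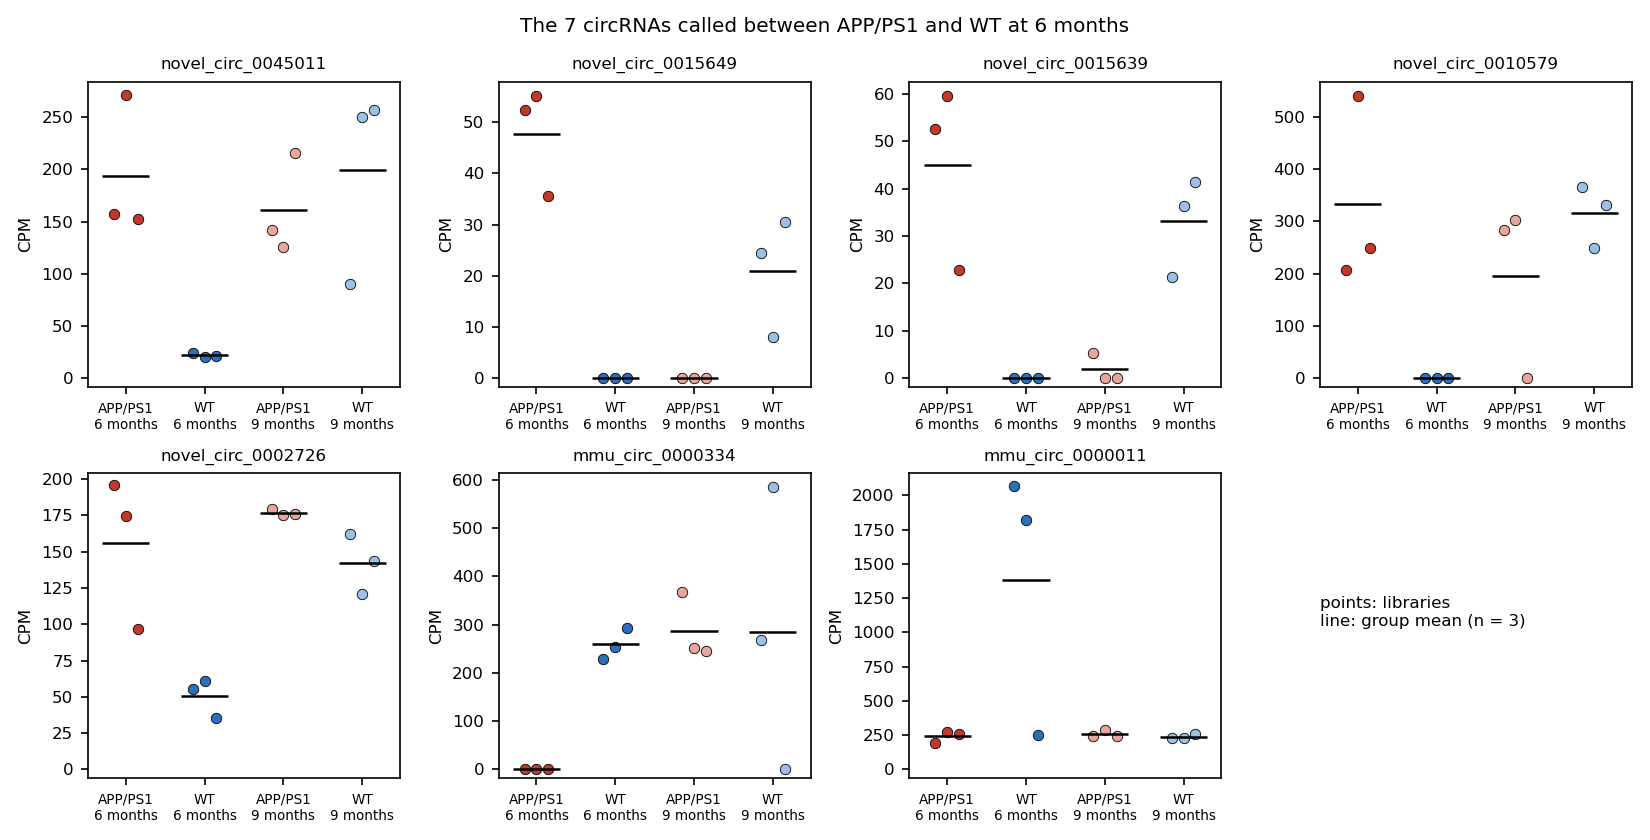
CPM of the 7 called circRNAs in the 12 circRNA libraries. Each panel is 1 circRNA with its own linear y axis in CPM, each point 1 library, and the line the mean of the 3 libraries of a group, APP/PS1 and WT of 6 months and then of 9 months. At 6 months 3 circRNAs were at 0 in every WT library and 1 was at 0 in every APP/PS1 library. For mmu_circ_0000011, WT 1 and WT 2 of 6 months at 2069 and 1818 CPM stand apart from the rest.

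The most abundant circRNAs mostly had small fitted changes between the genotypes, and whether their levels were equal was not tested. Among the 10 with the highest mean CPM over the 6 libraries, 9 had catalogued IDs, and none of the 10 was called. The most abundant, mmu_circ_0000057, had 12936, 14275 and 14042 CPM in APP/PS1 and 12982, 13792 and 13559 CPM in WT. The groups overlapped, and the log2 change was 0.06 with a 95% interval of −0.16 to 0.29 (edgeR, adjusted p = 1). In 8 of the 10 every library lay within 5-fold of the highest. Their log2 changes ran from −0.37 to 0.22 and the bounds of their 95% intervals from −0.65 to 0.47, with a lowest adjusted p of 0.808.

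Of these 8 abundant circRNAs, 3 had groups that did not overlap, 1 higher and 2 lower in APP/PS1. Among the 308 circRNAs of at least 500 CPM the groups did not overlap for 29 that were higher (9.42%) and 45 that were lower (14.6%). mmu_circ_0000489 had 3358, 3223 and 3133 CPM in APP/PS1 and 3812, 4413 and 4581 CPM in WT. Every APP/PS1 library was below every WT library, with a log2 change of −0.37 and a 95% interval of −0.65 to −0.09 (edgeR, unadjusted p = 0.0132, adjusted 0.808). At 9 months the order of the means was the other way round, with 4222 ± 302 CPM in APP/PS1 and 3634 ± 825 CPM in WT. mmu_circ_0000017 averaged 4301 ± 191 CPM in APP/PS1 and 3771 ± 245 CPM in WT, a log2 change of 0.22 (95% interval −0.02 to 0.46, edgeR, adjusted p = 1). mmu_circ_0001125 averaged 4551 ± 299 CPM in APP/PS1 and 5121 ± 148 CPM in WT, a log2 change of −0.14 (95% interval −0.49 to 0.21, edgeR, adjusted p = 1). The intervals of mmu_circ_0000017 and mmu_circ_0001125 each span changes in both directions.

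The other 5 of these 8, mmu_circ_0000057 among them, overlapped between the genotypes. mmu_circ_0001605 averaged 7830 ± 1292 CPM in APP/PS1 and 7487 ± 972 CPM in WT, and mmu_circ_0001829 averaged 5546 ± 501 CPM in APP/PS1 and 5759 ± 548 CPM in WT. mmu_circ_0000349 averaged 4733 ± 243 CPM in APP/PS1 and 4688 ± 126 CPM in WT, and mmu_circ_0001589 averaged 4292 ± 127 CPM in APP/PS1 and 4105 ± 152 CPM in WT. Their differences were smaller than the SD of at least 1 of the groups, apart from mmu_circ_0001589, where the groups still overlapped.

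Of the 10 most abundant circRNAs 2 switched between very many reads and almost none, without following the genotype. novel_circ_0044209 had 6121, 7164 and 21 reads in APP/PS1 and 21, 4581 and 5270 in WT at 6 months. APP/PS1 3 and WT 1 were thus nearly empty for a circRNA that stood above the other 9 in each of the remaining 4 libraries. At 9 months it had 6163, 13 and 5988 reads in APP/PS1 and 9061, 4015 and 8 in WT, again with 1 nearly empty library in each genotype.

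mmu_circ_0000723 had 3939, 4871 and 4501 reads in APP/PS1 and 4447, 0 and 0 in WT at 6 months. All 3 APP/PS1 libraries and WT 1 held it at a like level, 10885, 10762 and 11437 CPM in APP/PS1 and 11708 CPM in WT 1. The fitted log2 change of 1.52 had a 95% interval of −2.24 to 5.27 (edgeR, adjusted p = 1). At 9 months it had 0 reads in each APP/PS1 library and 5657, 0 and 0 in WT, so in all 5 of the 12 libraries held it.

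**Figure D3:**
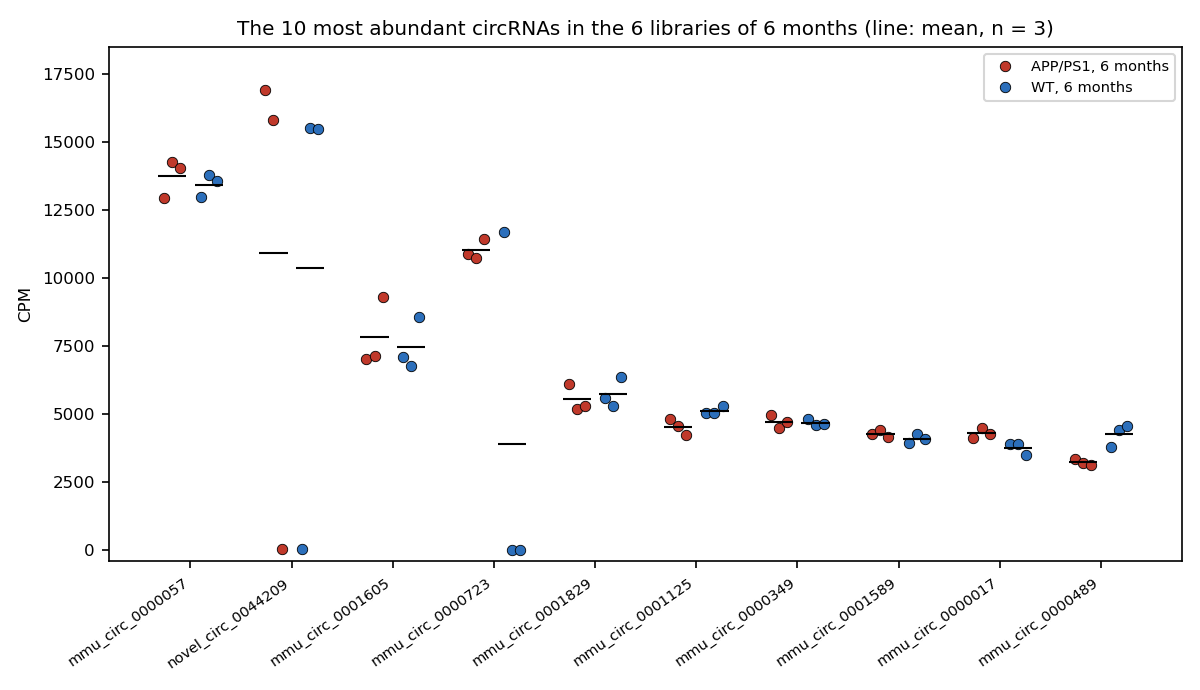
CPM of the 10 most abundant circRNAs in the 6 libraries of 6 months, APP/PS1 in red to the left of WT in blue. The y axis is CPM on a linear scale, each point is 1 library, and the line is the mean of 3 libraries. In 8 circRNAs the points of both genotypes lie close together on this scale, in 3 of them without overlap. The other circRNAs, novel_circ_0044209 and mmu_circ_0000723, have libraries at or near 0 beside libraries with 10762 CPM or more.

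Such switching was seen in other abundant circRNAs. Of 2410 circRNAs that exceeded 100 CPM in at least 1 library of 6 months, 91 also had a library under 5% of their highest value. In 48 of the 91 only 1 library was that low, and in 20 a library of each genotype was. The low libraries covered all WT and no APP/PS1 libraries in 4 of the 91, and all APP/PS1 and no WT libraries in 2. By library the number of these near-empty abundant circRNAs was 19, 22 and 30 in APP/PS1 and 35, 22 and 26 in WT. The ranges overlapped, and no single library held most of them.

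CircRNAs listed in 1 genotype only were counted over the whole table. There were 280 circRNAs above 0 in all 3 APP/PS1 and in no WT library (1.78% of the 15690 listed), and 109 above 0 in all 3 WT and in no APP/PS1 library (0.695%). Most had few reads, with a median over these circRNAs of 3.33 reads per library for those listed in APP/PS1 only and 3 for those listed in WT only. An average of at least 10 reads in the genotype that held them was reached by 9 of the 280 and 4 of the 109. Catalogued IDs made up 3 of the 280 and 3 of the 109. The number of circRNAs at 0 was 2044, 1397 and 1711 in the APP/PS1 libraries and 2156, 2971 and 2437 in the WT libraries. It fell with the reads of a library within each genotype, but WT 1 had more zeros than APP/PS1 1 although it held more reads. In libraries thinned to the smallest total, an alternative chosen after seeing the data, the numbers were 195 in APP/PS1 only and 147 in WT only. There a count of 1 left by thinning was taken as 0.

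Presence of these circRNAs was followed to 9 months. Of the 280 listed in APP/PS1 only, 236 were above 0 in at least 1 WT library of 9 months and 45 in all 3 of them. Of the 109 listed in WT only, 81 were above 0 in at least 1 APP/PS1 library of 9 months and 15 in all 3. At 9 months 138 of all listed circRNAs were above 0 in APP/PS1 only (0.88%) and 146 in WT only (0.931%). The same one-sided pattern was found at 9 months for 2 of the 280 (0.714%) and 1 of the 109 (0.917%), and the opposite one for 3 of the 280 (1.07%) and 2 of the 109 (1.83%). The shares with the same pattern are near those of all listed circRNAs at that age.

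The 3 with the most reads in each direction were mostly present in the other genotype at the later age. Beside novel_circ_0010579, novel_circ_0010580 had 30, 113 and 30 reads in APP/PS1 and none in WT at 6 months (edgeR, adjusted p = 0.0542), and 40, 52 and 0 in APP/PS1 and 65, 28 and 45 in WT at 9 months. novel_circ_0044900 had 35, 56 and 54 reads in APP/PS1 and none in WT at 6 months (edgeR, adjusted p = 0.206), and none in APP/PS1 and 76, 0 and 0 in WT at 9 months. The first of these was thus widely present in WT at 9 months and the second in 1 WT library. A further circRNA, novel_circ_0010578, was picked after its values were seen because its ID number adjoins that of the first ones. It had 35, 98 and 25 reads in APP/PS1 and 0, 2 and 0 in WT at 6 months, and 30, 40 and 0 in APP/PS1 and 11, 35 and 45 in WT at 9 months (edgeR, adjusted p = 0.154 at 6 months). All 3 of novel_circ_0010578, novel_circ_0010579 and novel_circ_0010580 were empty in APP/PS1 3 of 9 months as well as empty or nearly so in the WT libraries of 6 months.

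In the other direction, beside mmu_circ_0000334, novel_circ_0058129 had no reads in APP/PS1 and 42, 82 and 32 in WT at 6 months (edgeR, adjusted p = 0.0613), and 42, 101 and 0 in APP/PS1 and 118, 92 and 98 in WT at 9 months. novel_circ_0058120 had no reads in APP/PS1 and 16, 23 and 21 in WT at 6 months (edgeR, adjusted p = 0.132), and 6, 32 and 0 in APP/PS1 and 20, 22 and 31 in WT at 9 months. Both were present in 2 of the 3 APP/PS1 libraries of 9 months and absent from APP/PS1 3.

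The genotype differences of 6 months were set beside those of 9 months, which come from other libraries but share the model's estimate of the spread. At 9 months 1 of the 14872 circRNAs was called (0.00672%). The log2 change had the same sign at both ages for 7136 circRNAs, 48.0% of those tested, and the correlation of the changes across circRNAs was −0.02, given as a description since circRNAs of a library are not independent. Among the 788 with an unadjusted p under 0.05 at 6 months, 352 (44.7%) had the same sign at 9 months. Of those 788, 63 (7.99%) had an unadjusted p under 0.05 at 9 months too, 17 of them (27.0%) with the same sign. Over all tested circRNAs 661 (4.44%) had such a p at 9 months, 290 of them (43.9%) with the same sign at both ages. Of the 7 called at 6 months 1 had the same sign at 9 months, novel_circ_0002726.

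The difference between the ages was also tested directly. The genotype effect at 6 months minus that at 9 months passed the threshold for 6 of the 14872 circRNAs (0.0403%), and for 11 without WT 3 of 9 months. The 6 included 3 of the 7 called at 6 months, novel_circ_0045011 (edgeR, adjusted p = 0.0112), novel_circ_0015649 and novel_circ_0015639 (both 0.00271). The other 4 of the 7 had adjusted p-values of 0.0515 for novel_circ_0010579, 0.144 for mmu_circ_0000334, 0.245 for mmu_circ_0000011 and 0.495 for novel_circ_0002726.

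The remaining 3 were not called at 6 months. novel_circ_0015795, the circRNA called at 9 months, had 24.9, 22.1 and 22.9 CPM in APP/PS1 and 86.9, 74.6 and 79.3 CPM in WT at 6 months, without overlap (log2 change −1.75, edgeR, adjusted p = 0.0542). At 9 months it had 109.7, 173 and 178 CPM in APP/PS1 and 29.0, 16.1 and 27.6 CPM in WT, again without overlap and in the other direction (log2 change 2.57, edgeR, adjusted p = 0.00112). The 2 ages differed with an adjusted p of 0.000121 in edgeR.

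novel_circ_0027638 had 321, 365 and 323 CPM in APP/PS1 and 671, 638 and 626 CPM in WT at 6 months (log2 change −0.91, edgeR, adjusted p = 0.0761). The APP/PS1 libraries were all below the WT libraries, and at 9 months the means were 630.0 ± 42.2 CPM in APP/PS1 and 438 ± 135 CPM in WT. mmu_circ_0000598 had 644, 665 and 765 CPM in APP/PS1 and 400.2, 421 and 453 CPM in WT at 6 months (log2 change 0.73, edgeR, adjusted p = 0.739). All its APP/PS1 libraries were above all its WT libraries at that age, and at 9 months the means were 287 ± 148 CPM in APP/PS1 and 670.1 ± 120 CPM in WT. The difference between the ages had adjusted p-values of 0.034 for the first and 0.0432 for the second in edgeR.

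**Figure D4:**
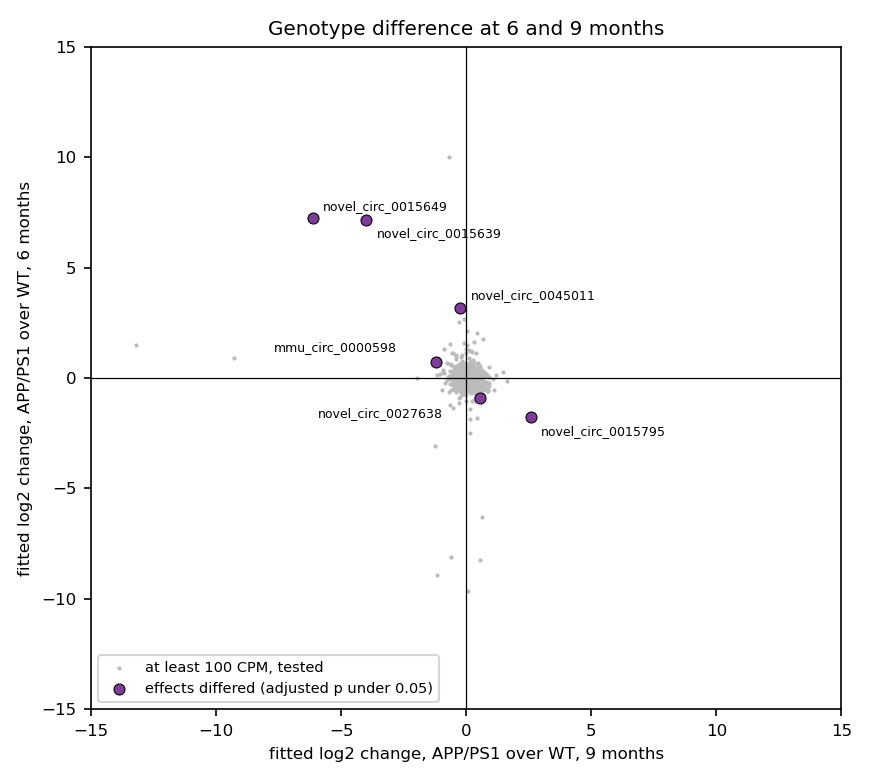
The y axis is the fitted log2 change of APP/PS1 over WT at 6 months and the x axis that at 9 months. Grey points are tested circRNAs with a mean of at least 100 CPM over the 12 libraries, and purple points the 6 circRNAs whose genotype effect differed between the ages. Of the 1785 circRNAs of at least 100 CPM, 45.8% had the same sign at both ages. Each purple point has opposite signs at the 2 ages, which the choice by their difference favours.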

How the data were processed

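Per the labels, brain RNA of 36 samples was sequenced as circRNA, long RNA and small RNA libraries, and groups and library numbers were taken from titles and characteristics. The circRNA table holds whole-number read counts per circRNA, made by the authors, and a second set of deposited columns headed tpm. These deposited values equalled the count scaled to a common total of circRNA reads per library, with no length term, so the authors' column is called CPM here. The deposited long RNA table holds FPKM per transcript made by the authors, which was summed per gene and used only to check the labels, and its depth is unknown. The submitters' processing notes name Bowtie 0.12.2 and the mouse build mm8, with no role stated. The circRNA caller, the annotation and any filter were not given in the sources used here. No deposited count was 1, the lowest above 0 was 2, and every listed circRNA was above 0 in at least 3 of the 12 libraries, so a 0 may stand for a value below a minimum, and no upper limit was taken from it. The lncRNA and miRNA tables were not used.

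A circRNA was tested where 3 or more libraries had 2 or more reads and the 12 libraries together had at least 20 (14872 of 15690). edgeR 4.0.16 in R 4.3.3 ran its quasi-likelihood F test on the counts with TMM scaling, in 1 model of the 12 libraries with 4 group means. The contrasts were APP/PS1 minus WT at 6 months, the same at 9 months, and the first minus the second. Tests were two-sided, Benjamini-Hochberg adjustment ran over all circRNAs tested, and adjusted p-values under 0.05 were called. Each standard error was derived from the log2 change and its F statistic, and so restates the test, and intervals are at 95%. The common biological coefficient of variation was 0.297. Library summaries were compared by exact permutation tests of the means in Python 3.11.15 with scipy 1.17.1. The scripts were tested on simulated data. Alternatives were other scalings, DESeq2 1.42.0, other filters, a replicate block, the 6 libraries of 6 months alone, thinned libraries and leaving out each library in turn. Precision is set by 294807 to 452621 circRNA reads in the libraries of 6 months. No source used here mentions molecular tags, so reads need not be independent molecules.

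The circRNAs and lists were chosen with earlier results of these data known. Named were up to 12 called circRNAs per direction with a mean of at least 10 reads over the 6 libraries and no overlap between the groups, the 10 most abundant, and the 3 with the most reads per direction among those listed in 1 genotype only. The other called circRNAs and those called in the difference between ages were added after their values were seen.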

Additional observations from a re-analysis of the deposited data

Results flagged for a closer look

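For 6 circRNAs the genotype effect at 6 months differed from that at 9 months in the edgeR test of the difference itself, and their differences of the log2 change (6 months minus 9 months) are given here. novel_circ_0045011 had a difference of 3.43 (adjusted p = 0.0112), with a log2 change of 3.18 at 6 months and −0.24 at 9 months. novel_circ_0015649 had 13.38 and novel_circ_0015639 had 11.16 (both adjusted p = 0.00271). These last differences depend on the prior count, because at 6 months the WT libraries were all listed at 0 and at 9 months so were all or 2 of 3 of the APP/PS1 libraries. novel_circ_0015795 had −4.32 (adjusted p = 0.000121), with changes of −1.75 at 6 months and 2.57 at 9 months, each without overlap of the genotypes. novel_circ_0027638 had −1.46 (adjusted p = 0.034), with −0.91 at 6 months and 0.55 at 9 months. mmu_circ_0000598 had 1.94 (adjusted p = 0.0432), with 0.73 at 6 months and −1.20 at 9 months. All 6 had opposite signs at the 2 ages, but they were picked by the difference of the 2 changes, which favours opposite signs. Of these 6, 1, novel_circ_0015795, was called when a mean of at least 10 reads was required. novel_circ_0015649 and novel_circ_0015639 fell under that mean and were not tested there.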

How the results depend on the processing

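The number of circRNAs called at 6 months was 7, and it was 8 with DESeq2-style size factors, 8 with library totals only and 8 without a filter on low counts. It was 0 with a mean of at least 10 reads required (330 of 5813 at an unadjusted p under 0.05 in edgeR). That filter left novel_circ_0015649 and novel_circ_0015639 of the 7 untested. The number was 23 with the 6 libraries of 6 months alone and 19 in DESeq2, where 9238 adjusted p-values were not given. In each of these last 2 settings 5 of the 7 were shared. The number called at 6 months ran from 1 to 17 with 1 library left out. The number called in the difference between ages was 6, and it was 1 under the stricter filter, 17 in DESeq2 and 4 to 11 with 1 library left out. The difference of the catalogued share ran from −0.519 to 0.115 percentage points with 1 library left out and was −0.708 without the 10 most abundant circRNAs, where the genotypes did not overlap (exact permutation p = 0.1, the smallest possible). The labels do not say whether equal library numbers pair the samples. The log CPM of each library was taken as a deviation from the mean of its group, over 1375 of the more abundant circRNAs. The deviations of equally numbered APP/PS1 and WT libraries correlated at −0.10, 0.14 and −0.02. Not every library correlated best with its own number. Deviations within a group sum to 0, so these correlations are tied to each other and do not settle whether the numbers pair the samples. With the number as a replicate block, 2 circRNAs were called at 6 months, 1 of them among the 7, and 5 in the difference between ages. No direction of a called circRNA was reversed under any alternative run. In these settings the cause was not tested, beyond the smaller number of circRNAs or libraries that a setting itself brings. CircRNAs under 20 CPM were 8759 of the 15690 listed. For the 7941 of them that were tested, the median standard error of the log2 change was 1.03. It was 0.16 for those of at least 500 CPM. The parts of depth and of spread between libraries in this were not separated.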
